A study of Mus musculus with 8 samples.

Results

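Krüppel-like factors (KLFs) are transcription factors with a set of C-terminal zinc fingers that bind GC-rich and CACCC elements. The genes described here are 9 of them, Klf3, Klf4, Klf6, Klf7, Klf9, Klf10, Klf11, Klf12 and Klf13, of 22180 genes on the array. Klf2 was left out of the set. They were chosen by their measured differences between the genotypes, in which KLF genes had been noted for several rises and no falls, so the differences between genotypes given for them are a description and not a test. Each gene is represented by its brightest probe set with exactly 1 gene symbol. Of the 9, 7 passed the intensity filter (a mean log2 value of at least 5.56 over all arrays), while Klf4 and Klf12 lay below it.

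The RNA came from sorted CD4SP thymocytes (CD4 single-positive, the helper-lineage T cells that mature in the thymus after positive selection) of mice on a C57BL/6 background. There were 4 samples of wild-type mice (WT) and 4 with the genotype Pggt1b_KO (KO), each on its own array. Pggt1b encodes the beta subunit of the enzyme GGTase I, which attaches a lipid of the mevalonate pathway to small GTPases, and the study asked how this modification bears on the exit of thymocytes. The sources used here do not give the deleted part of the gene, the promoter of any Cre, the ages of the mice or the number of animals behind a sample. Samples may or may not be separate animals, and p-values reflect no more than the spread among them. RNA amounts of 1 to 20 ng were amplified before labelling, and levels are log2 RMA intensities, comparable between arrays for a gene but not between genes.

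In T cells KLFs are best known for holding resting cells in quiescence and for controlling trafficking receptors. KLF2, the member described most in thymocytes, drives S1pr1, the receptor for thymic exit. In endothelial cells, KLF2 and KLF4 are known to be induced through the kinase ERK5 and MEF2 factors. The family falls into groups by partner protein. KLF3, KLF8 and KLF12 recruit the corepressor CtBP, KLF9, KLF10, KLF11, KLF13, KLF14 and KLF16 recruit Sin3A, and KLF6 and KLF7 are a closely related pair of activators.

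Levels of Klf6, Klf3, Klf7 and Klf13 were higher in every KO array than in any WT array, while the other 5 members overlapped between genotypes. Among the 7 members above the filter, 4 passed the threshold of the fit (limma, Benjamini-Hochberg adjusted p under 0.05) as higher and 0 as lower (1, Klf10, had an unadjusted p under 0.05). Over all 11585 tested genes 4.45% passed it as higher and 8.53% as lower. The KO arrays lay wholly above the WT arrays for 4 of these 7 members and wholly below for 0, against 6.79% and 13.5% of all tested genes. Of all 9 members, 5 had the higher mean in KO and 4 the higher mean in WT, while 40.9% of all tested genes had the higher mean in KO.

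**Figure D1:**
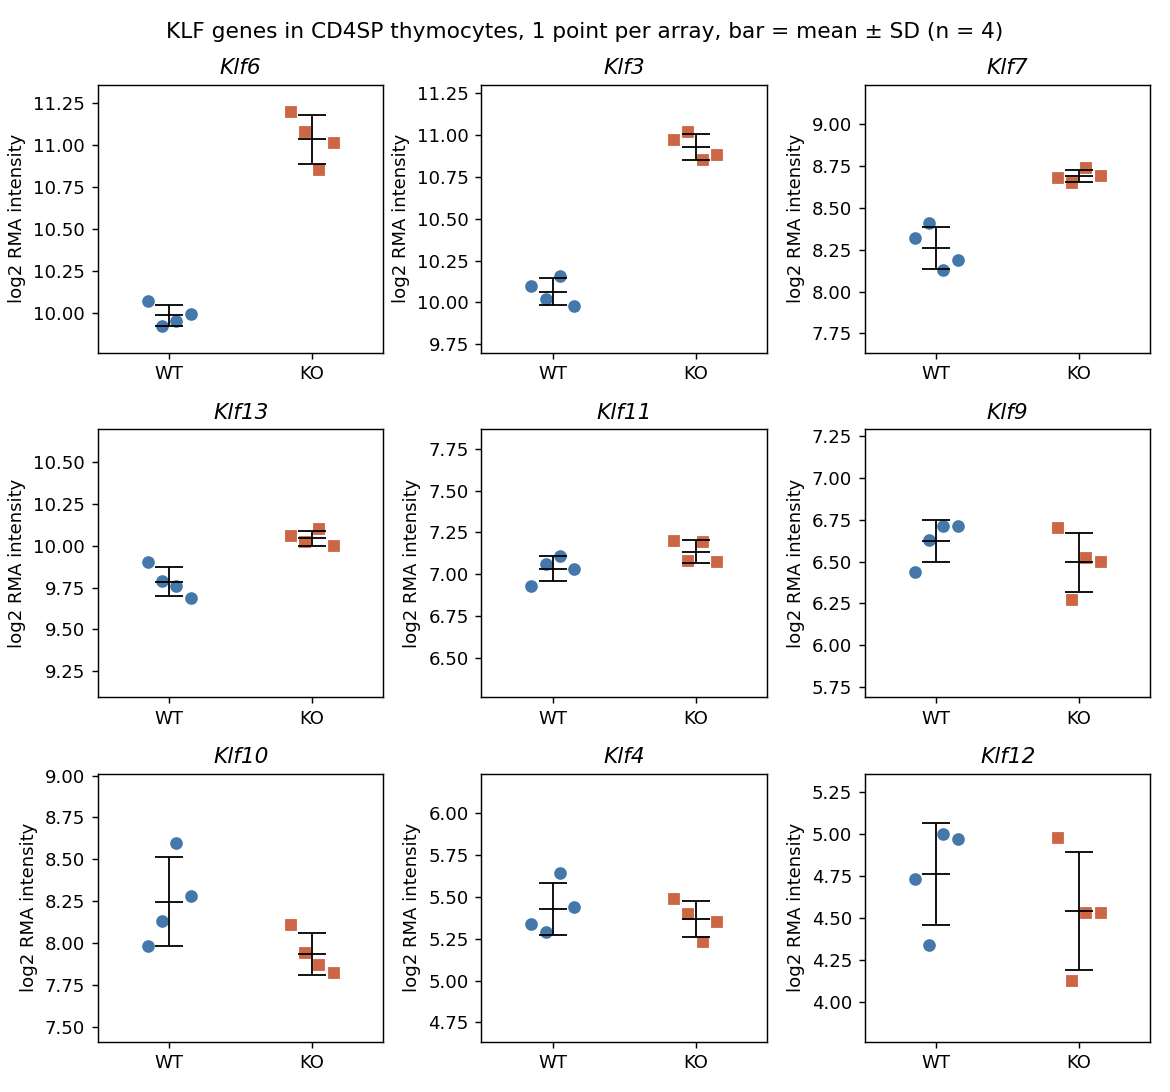
Level of each of the 9 KLF genes (log2 RMA intensity, y axis, each panel spanning the same range of log2 units) in the 4 WT and 4 KO arrays, with the mean ± SD as a bar. The genotypes are apart for Klf6, Klf3, Klf7 and Klf13 and overlap for Klf11, Klf9, Klf10, Klf4 and Klf12.

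Klf6, a widely expressed activator that is induced early after many stimuli, showed the largest difference of the 9. Its log2 level was 10.07, 9.92, 9.95 and 9.99 in WT replicates 1 to 4 and 11.20, 11.08, 10.85 and 11.01 in KO replicates 1 to 4. The lowest KO array thus stood well above the highest WT array. The means were 9.98 ± 0.0660 in WT and 11.04 ± 0.146 in KO (SD, n = 4 each), a log2 difference of 1.06 ± 0.0747 SE or 2.08-fold, which ranked 24 from the top of the 11585 tested genes.

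Klf3, which encodes a repressor that works through CtBP, was next. Its log2 level was 10.10, 10.02, 10.16 and 9.98 in the WT arrays and 10.97, 11.02, 10.85 and 10.88 in the KO arrays. Both groups were tight and far apart. The means were 10.06 ± 0.0824 and 10.93 ± 0.0805 (SD, n = 4 each), a difference of 0.87 ± 0.0606 SE or 1.82-fold, at rank 42 of the tested genes.

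Klf7, the close relative of Klf6, differed by less. Its WT arrays stood at 8.32, 8.41, 8.13 and 8.19 and its KO arrays at 8.68, 8.65, 8.74 and 8.69 on the log2 scale. The KO arrays lay closer together than the WT arrays. The means were 8.26 ± 0.127 and 8.69 ± 0.0362 (SD, n = 4 each), a difference of 0.43 ± 0.0658 SE or 1.34-fold. Klf7 alone among the members has a further probe set with its symbol, which lay at a mean of 4.14 in WT and 4.24 in KO, below the filter. Averaging both probe sets brought the difference of Klf7 to 0.26.

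Klf13, first described as an activator of Ccl5 in late activated T cells, had the smallest of the 4 separated differences. Its log2 level was 9.90, 9.79, 9.76 and 9.69 in WT and 10.06, 10.02, 10.10 and 10.00 in KO. WT replicate 1 was the WT array nearest to the KO arrays, and the groups did not overlap. The means were 9.79 ± 0.0884 and 10.04 ± 0.0440 (SD, n = 4 each), a difference of 0.26 ± 0.0560 SE or 1.19-fold. The count of members past the threshold was 3 without KO replicate 1 or without KO replicate 3, since Klf13 then dropped out, and it was 2 without both KO replicates 1 and 2, when Klf7 dropped out too.

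The promoters of these 4 genes are shown because their products bind GC-box and CACCC letters that their own promoters can hold. Each run is the 250 bases before the RefSeq start site in build GRCm38.p6, printed 5′ to 3′ on the strand of the gene. Capitals mark GGGCGG (GC box), CACCC and CCAAT letters on either strand. The runs lie at chr13:5861239-5861488 on the plus strand for Klf6, chr5:64803271-64803520 on the plus strand for Klf3, chr1:64121390-64121639 on the minus strand for Klf7 and chr7:63938916-63939165 on the minus strand for Klf13.
Klf6: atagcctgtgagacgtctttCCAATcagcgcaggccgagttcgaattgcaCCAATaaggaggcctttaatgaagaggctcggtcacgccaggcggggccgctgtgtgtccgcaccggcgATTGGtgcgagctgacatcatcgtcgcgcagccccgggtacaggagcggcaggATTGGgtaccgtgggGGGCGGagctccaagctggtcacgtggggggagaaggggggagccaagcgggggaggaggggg
Klf3: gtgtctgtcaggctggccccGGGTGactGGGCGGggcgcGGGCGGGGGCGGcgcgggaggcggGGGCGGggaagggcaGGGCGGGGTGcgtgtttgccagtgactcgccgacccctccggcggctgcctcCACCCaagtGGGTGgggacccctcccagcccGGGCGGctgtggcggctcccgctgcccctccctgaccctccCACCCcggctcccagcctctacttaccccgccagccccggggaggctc
Klf7: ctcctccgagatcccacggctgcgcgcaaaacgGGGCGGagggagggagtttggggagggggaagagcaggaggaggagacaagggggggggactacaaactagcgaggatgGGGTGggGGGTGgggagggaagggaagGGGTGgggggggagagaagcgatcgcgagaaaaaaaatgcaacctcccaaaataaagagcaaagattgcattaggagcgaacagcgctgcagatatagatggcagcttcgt
Klf13: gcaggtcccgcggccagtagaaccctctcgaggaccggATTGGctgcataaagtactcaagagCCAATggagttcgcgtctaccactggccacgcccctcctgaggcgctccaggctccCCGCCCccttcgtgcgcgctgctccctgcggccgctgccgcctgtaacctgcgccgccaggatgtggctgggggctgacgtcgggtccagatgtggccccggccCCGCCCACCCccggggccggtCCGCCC

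The 4 promoters differed in what they held. That of Klf3 was the richest, with 6 GGGCGG and 5 CACCC matches and a GC content of 78.4%, above that of 98.1% of promoters in the table. The promoter of Klf6 had 1 GGGCGG match, 0 CACCC matches and 4 CCAAT matches, that of Klf7 had 1 GGGCGG and 3 CACCC matches, and that of Klf13 had 3 GGGCGG, 1 CACCC and 2 CCAAT matches. Matches may overlap, as 1 CACCC match does with a GGGCGG match in each of Klf3 and Klf13. Of 32851 promoter windows of this length, 32.7% held GGGCGG, 52% CACCC and 33.8% CCAAT on either strand, and 2.79% held 3 or more CCAAT matches. Promoters of 8 of the 9 members were matched, all but Klf10, and 6 of the 8 held GGGCGG, 5 held CACCC and 4 held CCAAT. Members whose genotypes overlapped held such letters as well, with 4 GGGCGG matches each in Klf4 and Klf11. The GC content of these promoters was 74.0% and 76.8%, against a median of 52.4% over all promoters in the table. Promoters of like GC content were not compared. The matches describe letters and do not show binding.

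Klf11 and Klf9, both of the group that recruits Sin3A, overlapped between genotypes. Klf11 is a relative of Klf10 among the TGF-beta-inducible early genes. Its log2 level was 6.93, 7.06, 7.11 and 7.03 in WT and 7.20, 7.08, 7.19 and 7.07 in KO, so KO replicates 2 and 4 lay among the WT arrays (difference 0.10 ± 0.0575 SE). Klf9, a gene induced by glucocorticoid and thyroid hormone, stood at 6.44, 6.63, 6.71 and 6.71 in WT. Its KO arrays stood at 6.70, 6.27, 6.52 and 6.50, of which replicate 2 was lowest and replicate 1 at the level of the highest WT arrays (difference -0.12 ± 0.0949 SE).

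Klf10, the TGF-beta-inducible early gene TIEG1, leaned the other way from Klf6. Its log2 level was 7.98, 8.13, 8.60 and 8.28 in WT and 8.11, 7.94, 7.87 and 7.82 in KO. KO replicate 1 lay among the WT arrays, WT replicate 1 among the KO arrays, and WT replicate 3 above all others. The means were 8.25 ± 0.263 and 7.93 ± 0.126 (SD, n = 4 each), a difference of -0.31 ± 0.121 SE, which moved to -0.19 without WT replicate 3.

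Klf4 and Klf12 were dim. Klf4, which restrains proliferation and is high in myeloid and epithelial cells, stood at 5.34, 5.29, 5.64 and 5.44 in WT and 5.49, 5.40, 5.23 and 5.35 in KO. Klf12, a CtBP-dependent repressor like Klf3, stood at 4.73, 4.34, 5.0 and 4.97 in WT and 4.98, 4.12, 4.53 and 4.53 in KO. The genotypes overlapped for both, and their means lay 0.06 and 0.22 log2 apart with the WT mean higher. At levels below the filter a difference can be hidden by background signal.

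Spread within a genotype differed among the members. It bears on whether a difference is called, so it is not independent of how the genes were chosen. After the mean of each genotype was removed, the SD over arrays was 0.0698 for Klf13, 0.0738 for Klf11, 0.0814 for Klf3 and 0.0936 for Klf7. These values exceeded those of 25.5%, 29.2%, 36.1% and 46.9% of tested genes. It was 0.113 for Klf6 and rose through 0.133 for Klf4, 0.155 for Klf9 and 0.207 for Klf10 to 0.328 for Klf12. Klf10 was thus more variable than 93.1% and Klf12 than 98.6% of tested genes. Klf12 itself lay below the filter, so it was set against brighter genes. Some arrays were the highest for several members. KO replicate 1 was the highest KO array for 6 of the 9 (Klf4, Klf6, Klf9, Klf10, Klf11 and Klf12). WT replicate 3 was the highest WT array for 6 of the 9 (Klf3, Klf4, Klf9, Klf10, Klf11 and Klf12). Both counts include Klf4 and Klf12, which lay below the filter. The share of all tested genes highest in these arrays was not counted, so the pattern may hold for genes in general.

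KO replicate 1 and WT replicate 3 had the highest heat-shock level of their genotype, measured as the mean log2 level of the chaperone genes Hspa1a and Hspa1b. That level was 5.27, 6.36, 8.58 and 6.74 in WT replicates 1 to 4 and 10.34, 9.79, 4.57 and 8.25 in KO replicates 1 to 4. Heat-shock and immediate-early genes are known to respond to handling of cells. Klf6 followed the order of this level within KO, as did Klf4. Klf10 followed it within WT, as did Klf9, although WT replicates 3 and 4 both stood at 6.71 for Klf9. None of these genes followed it in the other genotype. Among WT arrays, Klf6 was highest, at 10.07, in replicate 1, which had the lowest heat-shock level of WT. Klf4 was lower in WT replicate 2 than in WT replicate 1. Within KO, Klf10 was lower in replicate 4 than in replicate 3, and Klf9 lower in replicate 2 than in replicate 3. KO replicate 3, with the lowest heat-shock level of all arrays, had the lowest Klf6 level of the KO arrays, at 10.85. The part of the heat-shock level in the KLF differences was not tested beyond the fits that follow. Once this level entered the fit beside genotype, the difference between genotypes was 1.00 ± 0.0715 SE for Klf6, 0.83 ± 0.0600 for Klf3, 0.46 ± 0.0680 for Klf7, 0.28 ± 0.0608 for Klf13 and -0.41 ± 0.109 for Klf10. Without KO replicates 1 and 2, the KO arrays with most of it, the differences of Klf6 and Klf3 were 0.95 and 0.80.

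**Figure D2:**
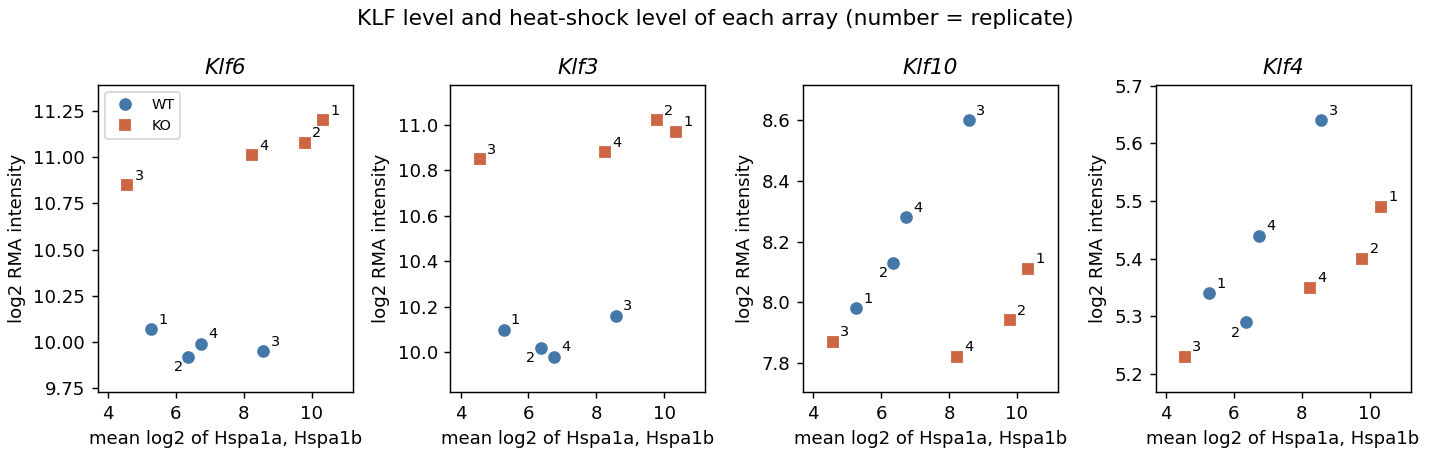
Level of Klf6, Klf3, Klf10 and Klf4 (log2 RMA intensity, y axis) against the mean log2 level of Hspa1a and Hspa1b (x axis) in each array, WT as circles and KO as squares, numbered by replicate. All KO arrays lie above all WT arrays for Klf6 and Klf3, and the genotypes overlap for Klf10 and Klf4. The heat-shock level spans 5.27 to 8.58 over WT arrays and 4.57 to 10.34 over KO arrays.

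In the wider list of handling-induced and heat-shock genes, 1 of 18 tested members rose and 2 fell, with a median difference of 0.09 log2 against -0.030 for all tested genes. Jun, an AP-1 subunit, rose by 0.91 ± 0.225 SE with overlapping arrays (limma, adjusted p = 0.0288), a call lost when WT replicate 1 or 3 or KO replicate 1, 2 or 4 was dropped (highest adjusted p 0.0791). The immediate-early gene Egr1 and the nuclear receptor gene Nr4a1, both induced by T cell receptor signals, fell by 0.36 and 0.31 log2 (adjusted p = 0.00733 and 0.0152). The mean of the list spanned 8.55 to 9.01 over WT arrays and 8.46 to 9.35 over KO arrays, so the genotypes overlapped.

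As for the series as a whole, Pggt1b stood at 8.35, 8.38, 8.29 and 8.36 in WT and 7.89, 7.57, 7.69 and 7.86 in KO, and fell by 0.59 log2 (limma, adjusted p = 0.00141). Of all tested genes 13.0% changed, 515 higher and 988 lower. Correlations across genes were 0.990 to 0.995 within a genotype and 0.985 to 0.990 between genotypes. The CD4SP markers were high in both genotypes, with Cd4 at 12.27 in WT and 12.26 in KO, and 0 of 7 changed in limma (0 had an unadjusted p under 0.05). Cd8a fell by 0.74 (adjusted p = 0.0354), a call lost when WT replicate 2 or 3 or KO replicate 2 or 4 was dropped (highest adjusted p 0.0893), and the mean of 6 CD8 and double-positive markers spanned 7.76 to 8.00 over WT arrays and 7.40 to 7.71 over KO arrays. Of 6 regulatory T cell markers 2 fell, Tnfrsf4 and Tnfrsf18, and the list mean spanned 8.76 to 8.94 over WT arrays and 8.50 to 8.72 over KO arrays. Foxp3, of the same list and named after its value was seen, stood 0.17 higher with overlapping arrays (limma, adjusted p = 0.505). The remaining uncalled markers of that list stood lower. Of the B cell, myeloid and erythroid markers 1, 4 and 1 passed the filter, and 0 of these changed in limma (0, 1 and 0 had an unadjusted p under 0.05). Their list means spanned 5.11 to 5.22, 4.98 to 5.11 and 5.76 to 5.79 over WT arrays and 5.13 to 5.33, 4.87 to 5.15 and 5.68 to 5.78 over KO arrays. Of the epithelial, stromal and endothelial markers, with list means of 6.17 to 6.20 over WT arrays and 6.14 to 6.21 over KO arrays, only Pecam1, which T cells also express, was called, higher by 0.24 (adjusted p = 0.0286, and at most 0.0769 when each array but WT replicate 1 or KO replicate 4 was dropped). Of the endothelial genes Cdh5 and Kdr, Cdh5 passed the filter, at 6.36 ± 0.109 in WT and 6.45 ± 0.203 in KO (SD, n = 4 each) with overlapping arrays (limma, adjusted p = 0.603), and Kdr lay below it. What these markers contribute to the KLF levels was not tested, and in sorted bulk cells a change in the share of cells and a change in RNA per cell cannot be told apart.

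The rest of the KLF and SP family, whose members share the zinc finger domain, was measured in 16 further genes, of which 9 passed the filter. Of these 9, 1 rose and 0 fell, with a median difference of -0.02. The gene that rose was Klf2, at 10.15, 9.87, 9.78 and 9.77 in WT and 10.59, 10.67, 10.42 and 10.60 in KO, by 0.68 ± 0.0912 SE or 1.60-fold (limma, adjusted p = 0.00206), a size between those of Klf3 and Klf7. Klf16, of the Sin3A group, stood 0.13 ± 0.0637 SE higher (adjusted p = 0.216). Klf8, the third gene of the CtBP group, stood at -0.16 ± 0.0975 (adjusted p = 0.316), Klf17 at -0.14 ± 0.0884 (0.343) and Klf14 at -0.03 ± 0.0631 (0.790). The general GC-box factors Sp1, Sp3 and Sp4 stood at -0.02, 0.09 and 0.09 (adjusted p = 0.867, 0.277 and 0.332) and Sp6 at -0.24 (0.230). Klf1, Klf5, Klf15, Sp5, Sp7, Sp8 and Sp9 lay below the filter, with means from 4.40 to 5.48, and Sp2 had no probe set with 1 symbol.

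**Figure D3:**
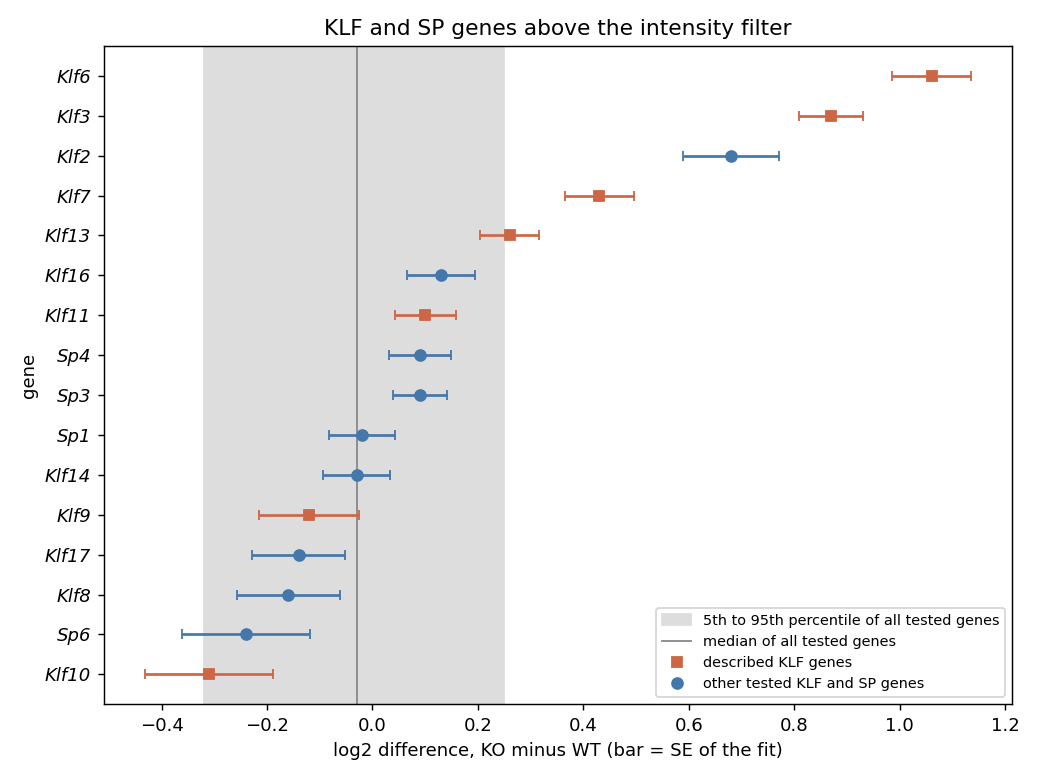
Difference between genotypes (log2, KO minus WT, x axis) with the SE of the fit as a bar for the 7 described KLF genes (squares) and 9 other KLF and SP genes (circles) above the intensity filter. Klf6, Klf3, Klf2 and Klf7 lie beyond the grey band, the 5th to 95th percentile of all tested genes from -0.32 to 0.25, on the high side, and Klf13, at 0.26, lies just past its upper edge.

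Cofactors of the family showed no call. Of 13 tested genes 0 rose and 0 fell in limma (3 had an unadjusted p under 0.05), with a median of -0.07. By an intensity trend with a robust prior 3 fell. The deacetylase gene Hdac2 and the CtBP gene Ctbp1 stood lowest at -0.19 ± 0.0569 SE and -0.18 ± 0.0588 (adjusted p = 0.0604 and 0.0789), with all KO arrays below all WT arrays. Ctbp2 lay below the filter. Hdac3 and the demethylase gene Kdm1a stood at -0.12 and -0.10 (adjusted p = 0.107 and 0.207). Of 7 ubiquitin ligases that turn over KLFs or SMADs 1 rose, Smurf1, by 0.23 ± 0.0541 SE (adjusted p = 0.0245), and 0 fell, with a list median of 0.09. This call was lost when KO replicate 1 or 2 or WT replicate 3 or 4 was dropped (highest adjusted p 0.0688). Wwp1, a ligase of KLF2 and KLF5, stood at 0.12 (adjusted p = 0.137), Smurf2 at 0.09 (0.441) and Itch, a ligase of KLF10, at 0.09 (0.453).

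Kinases and factors known to act upstream of KLF2 and KLF4 did not move together. Of 9 tested genes of the ERK5, MEF2 and FOXO list 0 rose and 1 fell, and the median was 0.00. Mapk7, which encodes ERK5, stood at 8.35, 8.64, 8.42 and 8.70 in WT and 8.26, 8.11, 8.18 and 8.29 in KO, and fell by 0.32 ± 0.0833 SE (adjusted p = 0.0348). Its call was lost when WT replicate 2 or 4 or KO replicate 1, 2 or 3 was dropped (highest adjusted p 0.0902). The upstream kinase genes Map3k3 and Map3k2 stood at 0.16 and 0.18 (adjusted p = 0.0653 and 0.135) and Foxo4 at 0.11 (0.147).

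TGF-beta signalling, of which Klf10 and Klf11 are known targets, changed in both directions. Of 13 tested genes 3 rose and 2 fell, with a median of -0.07. The repressor Tgif1 rose by 0.42 ± 0.0793 SE (adjusted p = 0.00987), the inhibitory SMAD gene Smad7 by 0.26 ± 0.0585 (0.0209) and the common SMAD gene Smad4 by 0.20 ± 0.0524 (0.0356). Tgif2 fell by 0.22 ± 0.0634 (0.0454), as did the receptor-activated SMAD gene Smad3, named after its value was seen, by 0.29 ± 0.0828 (0.0466). KO replicate 2, at 9.52, was the lowest array for Smad3, whose other KO arrays lay between 9.83 and 9.89. Dropping 1 array lost the call of Smad7 for WT replicate 2 and for each KO array other than replicate 3 (highest adjusted p 0.0559), of Smad4 for any but WT replicate 3 (0.0909), of Smad3 for any but KO replicate 4 (0.0923) and of Tgif2 for any (0.111).

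Genes of the glucocorticoid response, to which Klf9 belongs, gave 0 rises and 1 fall among 9 tested, with a median of 0.00. Zbtb16, which encodes the factor PLZF of innate-like T cells, fell by 0.69 ± 0.195 SE (adjusted p = 0.0453), a call lost when WT replicate 2 or any 1 of the KO arrays was dropped (highest adjusted p 0.106). Txnip stood at 0.40 (adjusted p = 0.0594), Per1 at -0.13 (0.181) and Sgk1 at 0.26 (0.210).

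Genes known to be bound or controlled by KLFs included receptors of trafficking that rose. Of 14 tested genes 4 rose and 1 fell, and the median was 0.05. The sphingosine 1-phosphate receptor genes S1pr4 and S1pr1 rose by 0.63 ± 0.0561 SE and 0.31 ± 0.0540 (adjusted p = 0.000224 and 0.00698). Cdkn1b, which encodes the cell cycle inhibitor p27, rose by 0.28 ± 0.0543 (0.0104). Lgals3, the galectin gene that KLF3 is known to repress in other cells, stood at 6.74, 6.64, 6.94 and 6.79 in WT and 6.35, 6.33, 6.50 and 6.47 in KO, and fell by 0.37 ± 0.0715 (0.0116). Ccl5, of the same list and named after its value was seen, stood at -0.28 with overlapping arrays (limma, adjusted p = 0.358). The integrin gene Itgb7, named after its value was seen, rose by 0.22 ± 0.0531 (0.0250), a call lost when WT replicate 2 or 3 or KO replicate 2 or 4 was dropped (highest adjusted p 0.0691). With the level of Hspa1a and Hspa1b in the fit, 10 calls given above were lost (adjusted p from 0.0573 to 0.116), those of Smurf1, Mapk7, Smad3, Smad4, Smad7, Tgif2, Zbtb16, Itgb7, Jun and Cd8a. S1pr1, S1pr4 and Itgb7 were already known from earlier results to be higher in KO, so they add no independent evidence.

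**Figure D4:**
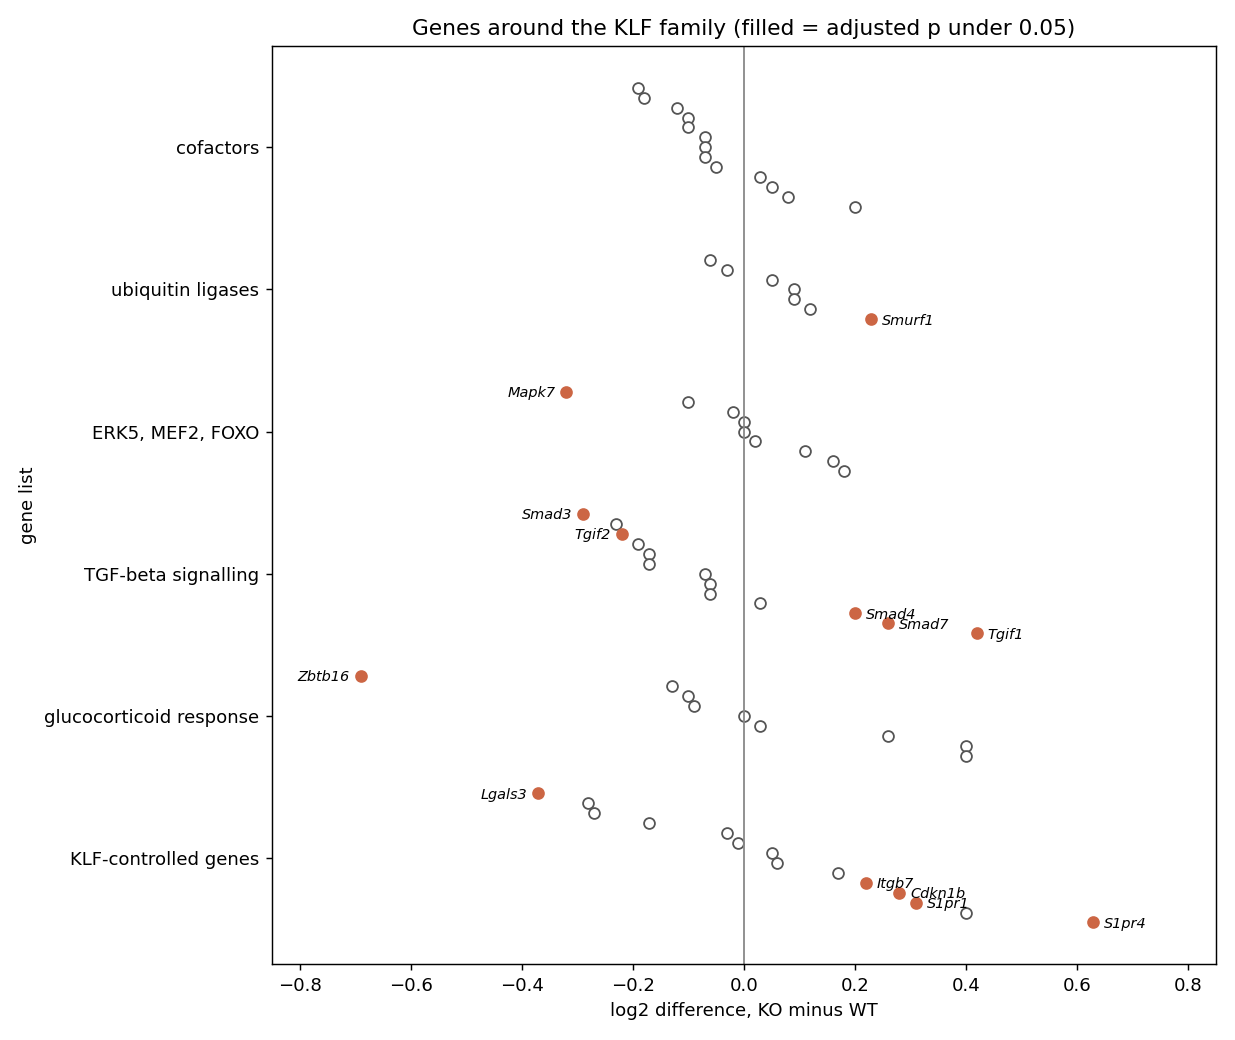
Difference between genotypes (log2, KO minus WT, x axis) of each tested gene in the 6 lists around the KLF family (y axis), filled and named where the adjusted p was under 0.05. The cofactor list holds no filled point, the TGF-beta list has 3 to the right and 2 to the left, and the list of KLF-controlled genes has 4 to the right and 1 to the left.

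The genes most like the 9 members in their spread were found by correlating, over the 8 arrays and with the mean of each genotype removed, every tested gene with the mean of the 9 members. The likest were the microRNA gene Mir27a (Pearson r = 0.991), the sorting nexin gene Snx8 (0.965), the keratin gene Krt78 (0.959), the deubiquitinase gene Usp36 (0.950) and the amino acid transporter gene Slc38a2 (0.950). These are the top of 11585 correlations over 8 arrays that share their hybridisations. None of these 5 was called between genotypes (limma, adjusted p from 0.0746 to 0.942), and their differences lay between -0.13 and 0.15 log2. The mean itself followed Klf12, Klf10, Klf4 and Klf9 most (r = 0.88, 0.81, 0.80 and 0.77), of which Klf12 and Klf4 lay below the filter. It followed Klf11, Klf6 and Klf3 less (0.62, 0.43 and 0.37), and Klf13 and Klf7 not at all or inversely (-0.13 and -0.58). Each member is part of this mean, so the likest genes are those like its most variable members.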

How the data were processed

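The authors deposited log2 intensities, 1 for each probe set of a gene. Per the submitters' processing notes they come from RMA, which corrects background, equalises the distributions of the arrays and summarises probes, in version 1.1 of Affymetrix Expression Console. The sources used here do not give the genome build, annotation release or detection calls. Precision is limited by the number of arrays. Of 41345 probe sets, 23521 carry exactly 1 gene symbol in GEO's platform annotation and stand for 22180 genes, each represented by its brightest probe set. Genes with a mean at or above the median probe set, a log2 value of 5.56, were tested, which left 11585.

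The genotypes were compared by a two-sided limma fit (version 3.58.1, R 4.3.3, lmFit followed by eBayes) that held only the genotype, with Benjamini-Hochberg adjustment over the tested genes and a threshold of 0.05. The fit was tested on simulated data with independent noise for each gene, which hold no effect shared by the genes of an array. The members and the gene lists were chosen with earlier results of these data known. Genes were named by a written rule: Pggt1b, the 9 members, all KLF and SP genes, up to 4 genes of each list by p (those past the threshold first), and the 5 genes most like the members in their spread within genotypes. Alternatives were another filter (none, or a mean of at least 6), another choice of probe sets, second normalization, median centring, array weights, covariates, an intensity trend, a threshold of 0.01 and leaving out arrays. Promoter sequences are those of RefSeq, build GRCm38.p6, matched by symbol.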

Additional observations from a re-analysis of the deposited data

Results flagged for a closer look

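In the 142 groups of 4 arrays checked, 8 had an array far from the other 3, where chance gives about 1 in 20. None of the 9 members was among them. In KO, Itch stood at 9.52 in replicate 4 against 9.27 to 9.29 in the others, Cdkn1b at 10.55 in replicate 1 against 10.38 to 10.41, Cd5 at 12.30 in replicate 3 against 12.19 to 12.20, and Smad3 at 9.52 in replicate 2 against 9.83 to 9.89. In WT, Per1 stood at 9.72 in replicate 3 against 9.61 to 9.62, Cd5 at 12.33 in replicate 2 against 12.25 to 12.26, Pdgfrb at 5.69 in replicate 2 against 5.63, and Klf14 at 6.18 in replicate 2 against 6.34.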

How the results depend on the processing

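Klf6, Klf3 and Klf2 kept direction and call under every alternative run. Klf7 lost its call without KO replicates 1 and 2, and Klf13 there, at a threshold of 0.01 and without KO replicate 1 or 3. Leaving out 1 array gave 302 to 496 higher and 493 to 945 lower genes, 3 to 4 members higher and 0 lower, 0 to 1 cofactors lower, 0 to 1 ligases higher, 0 to 1 ERK5, MEF2 and FOXO genes lower, 1 to 3 TGF-beta genes higher and 0 to 2 lower, 0 to 1 glucocorticoid genes in each direction, 3 to 5 KLF-controlled genes higher and 1 to 2 lower, and 0 to 3 handling genes higher and 2 lower. Without KO replicates 1 and 2, chosen after seeing the data, 136 genes were higher and 122 lower, with 2 members higher, 1 KLF-controlled gene higher and 0 lower, and 0 in either direction in the ligase, ERK5, TGF-beta, glucocorticoid and handling lists. At 0.01 there were 206 higher and 240 lower, with 1 TGF-beta gene higher and 0 lower, 2 KLF-controlled genes higher and 0 lower, 0 handling genes higher and 1 lower, and 0 ligase, ERK5 and glucocorticoid genes. The lower genes numbered 556 with no intensity filter, 524 with the heat-shock covariate and 506 over all probe sets, and under each of these 0 ligases were higher and 0 ERK5, TGF-beta and glucocorticoid genes lower. With the covariate or all probe sets 1 TGF-beta gene and 0 handling genes were higher. A second quantile normalization gave 1 cofactor lower, 1 ERK5-list gene higher and 2 KLF-controlled genes lower, and median centring 1 cofactor and 2 KLF-controlled genes lower. The title number as a covariate gave 1 cofactor and 3 KLF-controlled genes lower, 1 glucocorticoid and 0 handling genes higher. An intensity trend with a robust prior gave 3 cofactors lower, 1 ERK5-list gene higher and 2 KLF-controlled genes lower, and array weights 1 TGF-beta gene and 2 KLF-controlled genes lower. The cause was not tested. Median centring moved the median difference of all tested genes by -0.034 and turned the direction of none of the 7 tested members. Klf4 and Klf12, below the filter, were not in that fit. No paired analysis was possible because the labels give the samples no shared replicate numbers.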
